A study of Oryzias latipes with 18 samples.

Results

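Transporter genes of the organic ion and ATP-binding cassette families were followed in medaka testis. The members are the genes of the deposited table whose symbol starts with slc22a or slco, or with abca to abcg followed by a digit, upper and lower case alike. There were 63 such genes among 22941 in the table, and 59 of them reached a mean of at least 10 normalized reads over the 18 libraries, among 18792 genes that did. The 59 comprised 14 slc22a, 8 slco, 5 abca, 10 abcb, 9 abcc, 4 abcd, 1 abce, 3 abcf and 5 abcg genes. The 4 below that mean were abcg2c, abcg5, slc22a7b.3 and 1 of 2 genes named slc22a13a.

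The study sequenced testis RNA of medaka, Oryzias latipes, a small freshwater fish used in toxicology. Males of a BPA lineage descended from ancestors that met bisphenol A at 10 µg/L as embryos, 4 generations earlier, and males of a control lineage had no such ancestry. Both lineages were kept for 21 days with perfluorooctane sulfonate (PFOS), a persistent fluorinated surfactant, at 0, 0.002 or 0.02 mg/L, which gives 6 groups of 3 libraries from biological replicates. The unexposed group of the BPA lineage thus carries the ancestral exposure alone. The sources used here do not give the strain or age of the fish.

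SLC22 proteins carry organic cations, organic anions, carnitine and zwitterions across the cell membrane. SLCO proteins, the OATPs, take up bulky organic anions such as bile salts, prostaglandins and hormone conjugates. ABC proteins use ATP. The ABCB, ABCC and ABCG families hold the multidrug exporters, and ABCA and ABCG members move lipids and sterols. Most ABCD members, though not abcd4, bring fatty acyl groups into peroxisomes, and ABCE and ABCF members have no membrane part and act on ribosomes. In mammals, transporters of the SLC22 and SLCO families handle perfluoroalkyl acids in kidney and liver, and ABC exporters at the blood-testis barrier limit what reaches germ cells.

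The library labelled control lineage 0.002 mg/L replicate 2 stood apart. Its 10 detected oocyte markers summed to 928615 normalized reads, against 434 to 7685 in the other 17, and its Sertoli, spermatocyte and spermatid marker sums were 9439, 10140 and 3326, below the 33809 to 74263, 31192 to 58274 and 25378 to 38929 of the 17. The markers of testis were thus present in all of the 17. Results below come from the 17 libraries, with the counts and calls from all 18 given as well, so the control lineage group at 0.002 mg/L has n = 2. In the control lineage group at 0 mg/L, replicates 1 and 3 carried gut and kidney transcripts. Their 13 detected intestine markers summed to 49734 and 10133, against 1194 to 1725 in the other 15 libraries, and their 19 detected kidney markers to 3016 and 35487, against 910 to 2428. Of the 35487, the marker slc12a3 alone held 31800. These 2 libraries enter every contrast with unexposed control lineage fish, and the calls of members were also computed without them, which leaves 1 library in that group. That library, replicate 2, had intestine and kidney sums of 1383 and 1907. Its intestine marker cldn15la read 155, against at most 12.2 outside the group. Its 9 detected exocrine pancreas markers summed to 3739, the highest of all libraries, so it was not free of transcripts of other organs. Library depth, as recovered from the values, was 23.7 to 47.7 M reads. In bulk tissue, fewer cells of a type and less RNA per cell cannot be told apart.

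Few transporter genes passed the test in the comparisons of 2 groups, and the most passed for the interaction of lineage and dose at 0.02 mg/L. That interaction also had the highest share of calls over all genes, 14.2%. The test was limma on log2(normalized reads + 1), two-sided, with p adjusted by Benjamini-Hochberg over the 18792 genes and a threshold of 0.05. In the control lineage, 2 of 59 members passed at 0.002 mg/L against 0 mg/L, where 4.59% of all genes did, and 3 of 59 passed at 0.02 mg/L, where 12.8% of all genes did. In the BPA lineage, 0 of 59 passed at 0.002 mg/L, where 0% of all genes did, and 0 of 59 at 0.02 mg/L, where 0.41% of all genes did. Between the lineages without PFOS, 5 of 59 passed, beside 10.3% of all genes. Between the lineages at 0.002 mg/L, 0 of 59 passed beside 0% of all genes, and at 0.02 mg/L 0 of 59 beside 0.0213%. The change from 0 to 0.02 mg/L differed between lineages (the interaction of lineage and dose) in 12 members, or 20.3% of the 59, beside 14.2% of all genes, and the change from 0 to 0.002 mg/L in 1 member, beside 0.899%. With all 18 libraries the counts in the control lineage were 3 (7.85% of all genes) at the low dose and 0 (0.0692%) at the high dose. They were 0 (0%) at each dose in the BPA lineage, and 0 (0.0213%), 0 (0%) and 0 (0.016%) between lineages as the dose went up. The interaction then had 1 call (1.39%) at the high dose and 0 (0%) at the low dose.

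Behind the comparisons with a limma count of 0 stood some unadjusted differences. At an unadjusted p under 0.05 there were 9 members for the low dose in the BPA lineage (9.55% of all genes), 12 for the high dose (18.4%), 6 between lineages at the low dose (8.42%) and 8 at the high dose (12.1%). edgeR on the recovered reads made 0 member calls in these 4 comparisons, beside 0%, 0%, 0% and 0.016% of all genes. In the same order DESeq2 made 1, 4, 0 and 1, beside 0.122%, 5.74%, 0.564% and 0.867%.

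**Figure D1:**
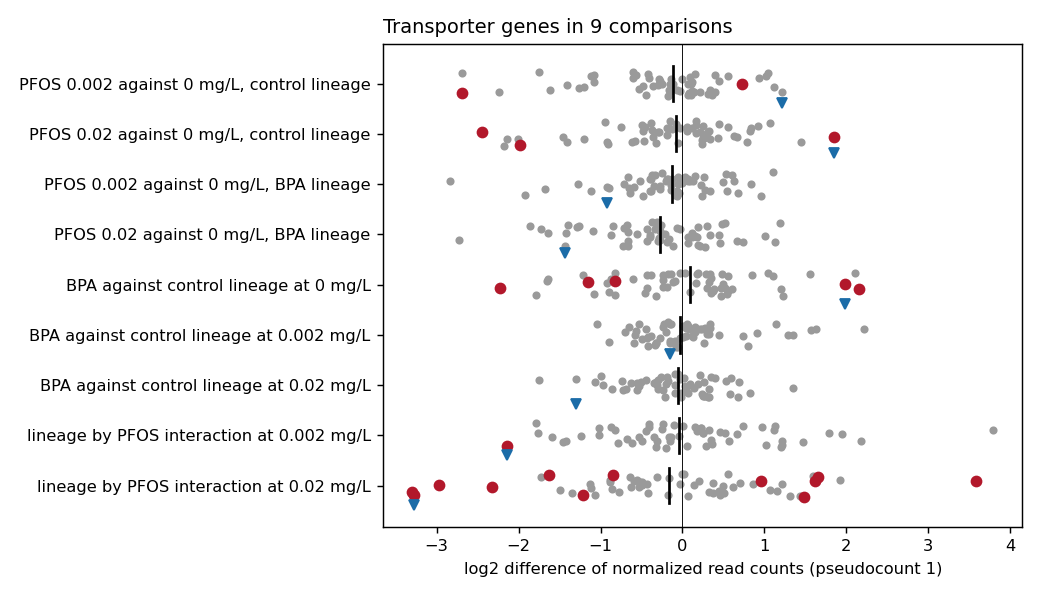
Each dot is 1 of the 59 transporter genes, placed by its log2 difference in normalized reads (pseudocount 1, horizontal axis) in each of 9 comparisons (rows); red dots passed the adjusted p of 0.05, grey dots did not, the black bar is the median and the blue triangle below a row marks slc22a2. The interaction at 0.02 mg/L holds 12 red dots, with slc22a2 at -3.28, while the rows for PFOS within the BPA lineage hold 0.

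The members scattered around zero within and between lineages. Their median lay farthest below that of all genes in the BPA lineage at 0.02 mg/L. The median log2 difference over the 59 was -0.11 at 0.002 mg/L and -0.08 at 0.02 mg/L in the control lineage, where the medians of all genes were 0.01 and 0.03. In the BPA lineage it was -0.13 and -0.28, beside -0.05 and -0.06 for all genes. Between lineages it was 0.09, -0.03 and -0.06 in order of rising dose, beside 0.07, -0.02 and -0.03 for all genes. Within groups, the SD of a member on the log2 scale had a median of 0.445 and ran from 0.126 for slc22a15 to 1.66 for slc22a13b, a relative of the urate and nicotinate carrier OAT10. The ratio of a member's highest to its lowest group mean had a median of 2.0 and ran from 1.24 for abcf1 to 27.4 for slc22a6l.

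slc22a2 (ENSORLG00000026143) rose with PFOS at 0.02 mg/L in the control lineage and was higher in the BPA lineage than in the control lineage without PFOS. The gene encodes OCT2, an organic cation carrier best known from the basolateral side of the mammalian kidney tubule. It was singled out with earlier results of these data known, so its tests are no independent evidence. In the control lineage its normalized read count was 87.2, 103 and 145 at 0 mg/L, 280 and 231 at 0.002 mg/L, then 495, 248 and 503 at 0.02 mg/L. In the BPA lineage it was 401, 557 and 366 at 0 mg/L, 301, 193 and 205 at 0.002 mg/L, then 152, 131 and 206 at 0.02 mg/L. All exposed control lineage libraries thus lay above all unexposed ones, and all exposed BPA lineage libraries lay below all unexposed ones. The library with oocyte transcripts held 66.2, under every other library.

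Group means (± SD) of slc22a2 were 112 ± 30.1 (n = 3), 256 ± 34.9 (n = 2) and 415 ± 145 (n = 3) in the control lineage and 441 ± 102, 233 ± 59 and 163 ± 38.9 (n = 3 each) in the BPA lineage, in order of rising dose. The order of the means, from low to high, was control lineage 0, BPA lineage 0.02, BPA lineage 0.002, control lineage 0.002, control lineage 0.02 and BPA lineage 0 mg/L, and each neighbouring pair in that order overlapped in its libraries. Unexposed BPA lineage fish therefore sat at the level of the most exposed control lineage fish, and BPA lineage fish at 0.02 mg/L close to unexposed control lineage fish.

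**Figure D2:**
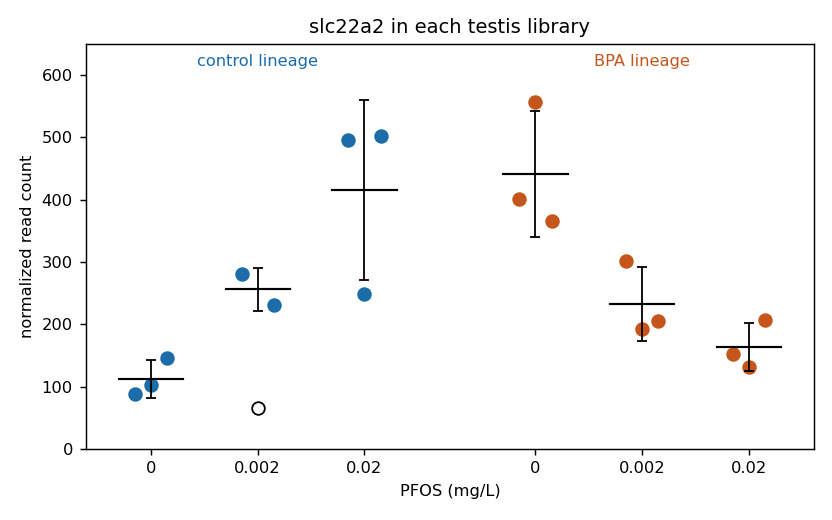
Each point is the normalized read count of slc22a2 (vertical axis) in 1 testis library by PFOS concentration in mg/L (horizontal axis), blue for the control lineage and orange for the BPA lineage; bars are group means ± SD and the open circle is the library with oocyte transcripts, left out of mean and SD. Group means are 112, 256 and 415 in the control lineage and 441, 233 and 163 in the BPA lineage.

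For slc22a2, the log2 difference at 0.02 against 0 mg/L in the control lineage was 1.85 ± 0.32 (SE), a 3.59-fold rise, with a limma adjusted p of 0.00797. Between the unexposed lineages it was 1.98 ± 0.32, 3.94-fold higher in the BPA lineage, with an adjusted p of 0.00379. In BPA lineage fish given the high dose it was -1.43 ± 0.32 with a limma adjusted p of 0.0618, and between lineages at 0.02 mg/L -1.30 ± 0.32 with 0.21. DESeq2 passed both, with adjusted p-values of 0.00183 and 0.0111, and so did limma without control lineage 0.02 mg/L replicate 2 (0.0287 and 0.0251). The first also passed in limma without high-dose replicate 3 of the BPA lineage (0.0239) or the control lineage (0.0418). The low dose gave 1.21 ± 0.36 in the control lineage, with a limma adjusted p of 0.06; all 18 libraries gave 0.57 (0.409) and DESeq2 1.13 (0.0207). The limma value of 0.06 became 0.0382 without BPA lineage 0.02 mg/L replicate 3 and 0.0425 without control lineage 0.02 mg/L replicate 2. In the BPA lineage the low dose gave -0.92 ± 0.32, with a limma adjusted p of 0.445. At this dose the difference between lineages was -0.16 ± 0.36 (adjusted p 0.944), or 0.49 with all 18 libraries (adjusted p 0.549).

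The response of slc22a2 to PFOS differed between the lineages at the high dose, while the call at the low dose lay at the threshold and was lost in most other fits. For the high dose the interaction was -3.28 ± 0.46 on the log2 scale, with a limma adjusted p of 0.00127 and an edgeR adjusted p of 0.00214. It passed in all 9 other settings, among them all 18 libraries (adjusted p 0.0297) and the fit without both libraries with gut and kidney transcripts (-3.37, adjusted p 0.0243), and in all 17 fits that left out 1 library, with values from -3.61 to -3.10. For the low dose it was -2.14 ± 0.48 with an adjusted p of 0.049, which all 18 libraries moved to -1.49 and 0.212. That call was lost in 11 of the 17 fits that left out 1 library: control lineage 0 mg/L replicate 1 or 3 (0.138 and 0.059), 0.002 mg/L replicate 1 or 3 (0.0693 and 0.275) and 0.02 mg/L replicate 1 (0.0632). In the BPA lineage these were 0 mg/L replicate 1 or 2 (0.0915 and 0.133), any at 0.002 mg/L (0.107, 0.104 and 0.087) and 0.02 mg/L replicate 2 (0.0554). slc22a2 was the 1 member with a difference among the 6 groups in the F test, with an adjusted p of 0.0216, beside 2.23% of all genes. With all 18 libraries that F test had 0.178 (0.0266% of all genes passed), and 0 members passed it without control lineage 0 mg/L replicate 1 or BPA lineage 0 mg/L replicate 1 or 2.

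Calls of slc22a2 within single contrasts held in fewer fits than its interaction at 0.02 mg/L. The rise at 0.02 mg/L had an adjusted p of 0.0514 without control lineage 0 mg/L replicate 1, 0.0572 without control lineage 0.02 mg/L replicate 3 and 0.109 with all 18 libraries. The difference between unexposed lineages passed in all 17 fits that left out 1 library, from 1.80 to 2.18, and had an adjusted p of 0.0792 with all 18. Without both control libraries with gut and kidney transcripts the values were 1.93 and 2.07, with adjusted p-values of 0.158 and 0.141. In these libraries slc22a2 stood at 87.2 and 145, beside 103 in replicate 2 of the same group, which was not free of transcripts of other organs either.

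Markers of other cells moved in part with slc22a2. The 3 detected Leydig and steroid cell markers (star, hsd11b2 and lhcgr, none at 0 in any library) summed to 1218 to 1557 normalized reads in unexposed control lineage fish and to 1724 to 3552 in unexposed BPA lineage fish. Of the single markers, hsd11b2 was higher in the BPA lineage without overlap. star, at 1028 in BPA lineage replicate 3, reached into the control range of 837 to 1096. lhcgr went the other way, at 57.3, 65.6 and 97.3 in the control lineage and 19.4, 28.2 and 63.2 in the BPA lineage. With the high dose the sums were 1101 to 2449 in the control lineage and 717 to 3775 in the BPA lineage, so these groups overlapped where slc22a2 did not. The 10 detected oocyte markers, none at 0 in any library, summed to 434 to 585 in unexposed control lineage fish, 597 to 786 at the low dose and 1031 to 7685 at the high dose, without overlap, and to 716 to 948 in unexposed BPA lineage fish. In the BPA lineage they summed to 534 to 729 at the low dose and 722 to 2712 at the high dose. The control lineage library with 7685 held the lowest slc22a2 count of its group, 248, and the library left out, with 928615, held 66.2. The smooth muscle and connective tissue markers summed to 15849 to 24796 in unexposed control lineage fish and 8698 to 14701 at the high dose. In the BPA lineage they summed to 21659 to 26951 and 8521 to 17443, so the sums were lower with the high dose in both lineages, without overlap. Single markers differed: tagln overlapped in neither lineage, cnn1b and col1a2 overlapped in the control lineage and acta2 in both. desma did not share the fall. At the high dose it reached 127 in the control lineage and 168 in the BPA lineage, beside at most 93 and 98.6 without PFOS. acta2 stood at 7224 in BPA lineage 0.02 mg/L replicate 1, above all unexposed libraries of that lineage. The 19 kidney markers summed to 1213 to 2428 in unexposed BPA lineage fish and 910 to 1472 in the control lineage at 0.02 mg/L, the groups where slc22a2 was highest. The 9 detected exocrine pancreas markers summed to 844 to 3739 in unexposed control lineage fish and 172 to 220 at the high dose. In the BPA lineage they summed to 418 to 973 and 181 to 273. Of the single pancreas markers, CPA1 overlapped in the control lineage and several overlapped in the BPA lineage. The part of cell composition in the result was not tested.

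The other organic cation and carnitine carriers of the SLC22 family varied widely between libraries. slc22a5 (ENSORLG00000001185) encodes OCTN2, the sodium-dependent carnitine carrier. Its count was 276, 133 and 293 at 0 mg/L, 274 and 39.4 at 0.002 mg/L, then 311, 275 and 211 at 0.02 mg/L in the control lineage, and 614, 599 and 2353, then 82.3, 194 and 145, then 87.1, 114 and 296 in the BPA lineage. Every unexposed BPA lineage library was above all of the other libraries. The interaction at 0.02 mg/L was -2.97 ± 0.95, with a limma adjusted p of 0.0472. Within lineages, slc22a5 differed by -2.84 at 0.002 mg/L and -2.72 at 0.02 mg/L in the BPA lineage and by 2.11 between unexposed lineages, with adjusted p-values of 0.43, 0.0704 and 0.0559.

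slc22a21 (ENSORLG00000001226), whose mouse namesake is the carnitine carrier Octn3, was highest in the same 2 groups as slc22a2, with more scatter. Its count was 241, 128 and 329 at 0 mg/L, then 1066, 308 and 624 at 0.02 mg/L in the control lineage, and 658, 537 and 728 at 0 mg/L, then 116, 77.1 and 598 at 0.02 mg/L in the BPA lineage. Exposed and unexposed libraries overlapped within each lineage. The interaction at 0.02 mg/L was -3.30 ± 0.91, with a limma adjusted p of 0.0267 and an edgeR adjusted p of 0.0626. At 0.002 mg/L the libraries held 401 and 134 in the control lineage and 153, 193 and 260 in the BPA lineage.

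slc22a16 (ENSORLG00000014062), a carnitine carrier found in human testis, was read at 5452, 4826 and 3832 in unexposed control lineage fish and at 3658, 4715 and 2632 in unexposed BPA lineage fish. With the high dose it was read at 3623, 3575 and 4214 and at 3511, 2431 and 7304. All 6 groups overlapped, and no comparison of slc22a16 passed. slc22a4 (OCTN1, an ergothioneine carrier) ran from 25.5 to 111 in the 17 libraries with no call.

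SLC22A17 (ENSORLG00000006113), the receptor that takes up lipocalin-2 and its iron, rose with PFOS at 0.002 mg/L in the control lineage. It stood at 350, 426 and 445 at 0 mg/L, 626 and 715 at 0.002 mg/L, then 605, 508 and 545 at 0.02 mg/L, and in the BPA lineage at 611, 567 and 590, then 529, 490 and 584, then 519, 412 and 417. Unexposed control lineage libraries lay below all others except 2 of the BPA lineage at 0.02 mg/L. The log2 difference at 0.002 mg/L was 0.72 ± 0.20, with a limma adjusted p of 0.0487, and the library with oocyte transcripts held 1357, with which it was 1.06 (adjusted p 0.0377). The call was lost in 13 of the 17 fits that left out 1 library, among them those without control lineage 0 mg/L replicate 1, 2 or 3 (0.16, 0.0506 and 0.0845) and without 0.002 mg/L replicate 1 or 3 (0.0749 and 0.436). The other 8 were control lineage 0.02 mg/L replicates 1 and 3, BPA lineage 0 mg/L replicates 1 and 2, all BPA lineage libraries at 0.002 mg/L and replicate 2 at 0.02 mg/L, with adjusted p-values of 0.0544 to 0.0664. The interaction at 0.02 mg/L was -0.84 ± 0.25 (adjusted p 0.0358).

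The other SLC22 genes held no call. slc22a6l (ENSORLG00000006079), named for the kidney anion exchanger OAT1, was at 29.3, 24.3 and 913 in unexposed control lineage fish and between 5.65 and 62 in the other 14 of the 17 libraries. The reading of 913 came from replicate 3, the library with 31800 reads of slc12a3, the sodium chloride carrier of the distal tubule. That marker had 23.6 and 68 in replicates 1 and 2. Kidney markers were not raised together in replicate 3. There slc12a1 was high as well, at 1469, but clcnk at 9.16, slc34a1a at 8.59 and lrp2a at 581 lay within the range of the other libraries. At 0.02 against 0 mg/L in the control lineage slc22a6l differed by -2.18 ± 1.02 (limma adjusted p 0.155). slc22a15, slc22a18, slc22a31 and SLC22A23 kept group means within a ratio of 1.55 of each other.

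Among the SLCO genes, slco5a1a and SLCO3A1 passed in comparisons with unexposed control lineage fish. slco5a1a (ENSORLG00000008114), an orthologue of the little characterised OATP5A1, was at 82.1, 50.2 and 72.7 in unexposed control lineage fish, at 13.4 and 6.7 at 0.002 mg/L, then at 20.6, 12 and 5.9 at 0.02 mg/L. In the BPA lineage it was at 17.7, 7.51 and 18.1, then 36.6, 25.9 and 28.7, then 26.4, 70.1 and 15.4. Unexposed control lineage libraries were above all of the others except BPA lineage 0.02 mg/L replicate 2. It fell at both doses in the control lineage, with log2 differences of -2.69 ± 0.65 and -2.45 ± 0.58 and limma adjusted p-values of 0.0364 and 0.0202. Between the unexposed lineages it was lower in the BPA lineage, by -2.23 ± 0.58 (limma adjusted p 0.0266). With all 18 libraries the adjusted p-values of these 3 differences were 0.0376, 0.106 and 0.109.

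The response of slco5a1a at 0.02 mg/L differed between lineages by 3.58 ± 0.84 (limma adjusted p 0.011), which held in all 17 fits that left out 1 library and had an adjusted p of 0.051 with all 18. At 0.002 mg/L it was 3.79 ± 0.88 with an adjusted p of 0.0502. The fall at 0.02 mg/L had an adjusted p of 0.0836 without control lineage 0 mg/L replicate 1, 0.0512 without replicate 3 and 0.112 without control lineage 0.02 mg/L replicate 3. The fall at 0.002 mg/L had 0.121 and 0.0845 without those unexposed libraries, 0.403 without control lineage 0.002 mg/L replicate 3, 0.0523 without BPA lineage 0.002 mg/L replicate 2 and 0.0505 without replicate 3. The difference between unexposed lineages had 0.106 and 0.0689 without control lineage replicate 1 and 3, and 0.0588 and 0.14 without BPA lineage replicate 1 and 2.

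SLCO3A1 (ENSORLG00000014898), 1 of 2 genes with that symbol, belongs to the OATPs that carry prostaglandins. It was at 51.6, 54.2 and 24 in unexposed control lineage fish and at 111, 234 and 240 in unexposed BPA lineage fish, with no overlap. It was higher in the BPA lineage by 2.15 ± 0.49, 4.44-fold, with a limma adjusted p of 0.0148, which became 0.0556 without control lineage replicate 3, 0.0841 without BPA lineage replicate 2 and 0.182 with all 18 libraries. With the high dose the counts were 86.2, 69.9 and 107 in the control lineage and 44, 89.8 and 113 in the BPA lineage, which overlapped, and the interaction was -2.32 ± 0.69 (limma adjusted p 0.0333). The other gene, slco3a1 (ENSORLG00000008355), ran from 3005 to 4512 in the 17 libraries, and its group means stayed within a ratio of 1.35. The 2 may share reads, as may the pairs named abcb4, abcc4, slco1c1 and slc22a13a.

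The exporters of the ABCB, ABCC and ABCG families held calls in both directions. abcc1 (ENSORLG00000017141), which encodes MRP1, an exporter of glutathione and glucuronide conjugates, was at 1212, 1190 and 1116 in unexposed control lineage fish, 845 and 905 at 0.002 mg/L, then 587, 950 and 407 at 0.02 mg/L. In the BPA lineage it was at 485, 551 and 886, then 901, 871 and 935, then 1480, 1128 and 573. All unexposed control lineage libraries lay above all exposed ones of that lineage. The interaction at 0.02 mg/L was 1.61 ± 0.46 (limma adjusted p 0.0277), while the differences at 0.02 mg/L were -0.94 in the control lineage and 0.67 in the BPA lineage, with adjusted p-values of 0.062 and 0.279.

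abcg2a (ENSORLG00000002735), a homologue of the breast cancer resistance protein BCRP that lines the blood-testis barrier in mammals, was lower in the BPA lineage than in the control lineage without PFOS. It stood at 2277, 2789 and 2832 in the control lineage and at 1424, 1402 and 1645 in the BPA lineage, with no overlap. The log2 difference was -0.82 ± 0.21, 1.76-fold, with a limma adjusted p of 0.0247. It became 0.061, 0.0566 and 0.0739 without control lineage replicate 1, 2 or 3, 0.0815 and 0.115 without BPA lineage replicate 1 or 2, and 0.186 with all 18 libraries. Given the high dose, abcg2a stood at 2143, 2002 and 1540 and at 2965, 1595 and 1870, overlapping groups, and the interaction was 0.96 ± 0.30 (limma adjusted p 0.0417).

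abcc9 (ENSORLG00000017071) encodes SUR2, a regulatory subunit of ATP-sensitive potassium channels in smooth and striated muscle rather than an exporter. It was lower in the unexposed BPA lineage, at 846, 746 and 1082, than in the unexposed control lineage, at 2655, 1790 and 1582, by -1.15 ± 0.29 on the log2 scale (limma adjusted p 0.0206). The call was lost without control lineage replicate 1 (-0.93, 0.11) and without BPA lineage replicate 1 or 2 (0.0707 and 0.115), and had an adjusted p of 0.200 with all 18 libraries. With PFOS at 0.02 mg/L it stood at 969, 2415 and 1212 and at 1745, 1994 and 1606, which overlapped, and the interaction was 1.48 ± 0.41 (limma adjusted p 0.0243). The 10 detected smooth muscle and connective tissue markers did not share this order between the unexposed lineages: they summed to 15849 to 24796 in the control lineage and 21659 to 26951 in the BPA lineage, with lum at 0 in 4 libraries.

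abcb4 (ENSORLG00000009269), a phosphatidylcholine translocator in mammalian bile and a multidrug exporter in zebrafish, fell at 0.02 mg/L in the control lineage by 1.98 ± 0.60 on the log2 scale (limma adjusted p 0.0407). It stood at 632, 131 and 1438 at 0 mg/L, then at 173, 71.3 and 153 at 0.02 mg/L. Unexposed replicate 2, which is not among the 2 libraries with gut and kidney transcripts, stood at 131, inside the exposed range. Without both libraries that carried those transcripts the difference was -0.08 (adjusted p 0.958). Without either alone it was -1.80 (0.134) or -1.21 (0.159), and it was also lost without control lineage 0.02 mg/L replicate 1, 2 or 3 (0.07, 0.102 and 0.121), any BPA lineage library at 0.002 mg/L (0.0512, 0.0533 and 0.0523) or BPA lineage 0 mg/L replicate 1 (0.0503), and with all 18 libraries (0.131). Its copy ABCB4 (ENSORLG00000025063) was at 495, 138 and 1159 in unexposed control lineage fish and between 90.6 and 238 in the other 14 libraries.

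abcg1 (ENSORLG00000020791), which exports cholesterol to lipoproteins, was at 255, 476 and 476 in unexposed control lineage fish, 706 and 997 at 0.002 mg/L, then 868, 568 and 790 at 0.02 mg/L. In the BPA lineage it was at 681, 598 and 454, then 407, 393 and 426, then 501, 361 and 233. Exposed control lineage libraries lay above all unexposed ones of that lineage, with log2 differences of 1.12 and 0.92 that missed the threshold (limma adjusted p 0.0611 and 0.0525), and with all 18 libraries the first was 0.24 (adjusted p 0.776). The interaction was -1.63 ± 0.42 at 0.02 mg/L (adjusted p 0.0192) and -1.60 ± 0.45 at 0.002 mg/L (adjusted p 0.0687).

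abcd2 (ENSORLG00000008635), a peroxisomal transporter that imports long-chain fatty acyl groups, was at 154, 181 and 141 in unexposed control lineage fish and at 64.6, 121 and 73.7 in those given the high dose, with no overlap. In the BPA lineage it was at 77.6, 53.5 and 98.6 and then 137, 166 and 84.9, which overlapped. The interaction was 1.65 ± 0.50 (limma adjusted p 0.0358).

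**Figure D3:**
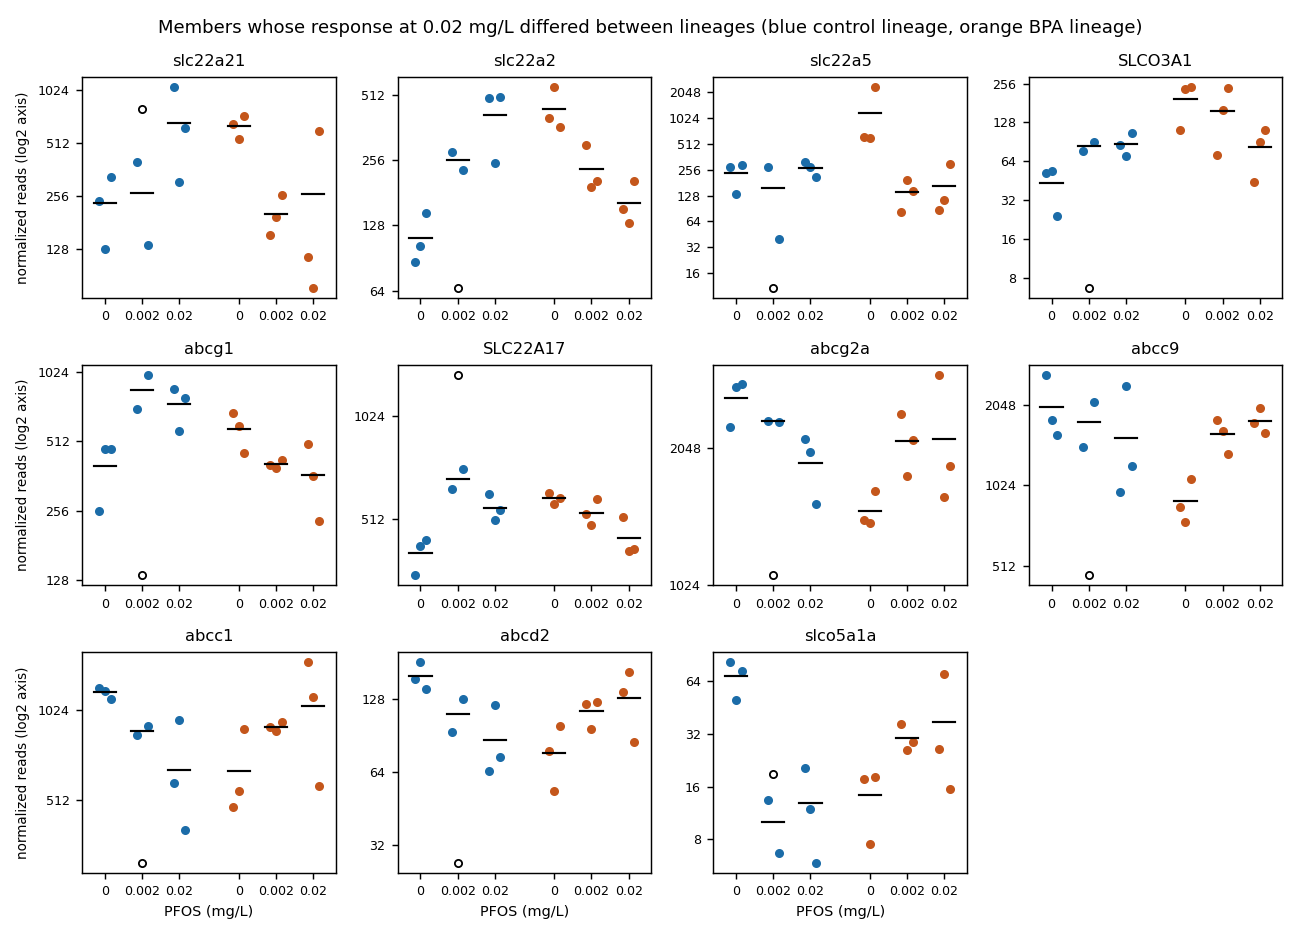
Each panel shows 1 of 11 of the 12 members whose change at 0.02 mg/L differed between lineages: normalized reads on a log2 axis in each library by PFOS concentration in mg/L, blue for the control lineage, orange for the BPA lineage, bars at group means and an open circle for the library with oocyte transcripts, left out of the means. In 6 panels, slc22a21, slc22a2, slc22a5, SLCO3A1, abcg1 and SLC22A17, the interaction is negative (6.34% of all genes were called negative), and in the other 5, abcg2a, abcc9, abcc1, abcd2 and slco5a1a, it is positive (7.89%).

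The 12 interaction calls differed in how many of the fits that left out 1 library kept them. Over all genes, the calls of this interaction ran from 1149 to 4016 in those fits, beside 2674 with the 17 libraries. The adjustment thus moved for all genes, and a lost call does not show that the member itself rested on the library left out. slc22a2 and slco5a1a were the 2 that remained in each of the 17 fits that left out 1 library, and they were the only members called when control lineage 0 mg/L replicate 1, control lineage 0.02 mg/L replicate 1 or 3, or BPA lineage 0 mg/L replicate 2 was left out, each of which gave 2 calls. Without BPA lineage 0 mg/L replicate 1 there were 3 calls, and without BPA lineage 0.02 mg/L replicate 2 there were 4. In the fit with all 18 libraries and in the fit without both libraries with gut and kidney transcripts, slc22a2 was the only call, and with all 18 the adjusted p of the others named here ran from 0.051 for slco5a1a to 0.275 for abcg1. Of the 12, slc22a5 lost the call in 14 of the 17 fits and abcg2a in 11.

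The members of this paragraph held no call, though other ABCB and ABCC members did. abca1a (ENSORLG00000014109), a cholesterol exporter, had group means of 3000 to 4452, and the lineages without PFOS differed by -0.46 ± 0.18 (limma adjusted p 0.0998). abcb10 (ENSORLG00000010893), of the mitochondrial inner membrane, had group means of 450 to 586. abce1 (ENSORLG00000002875), which recycles ribosomes, had 9684 to 12398, and abcf1 (ENSORLG00000010612), a translation factor, 5907 to 7339, with no call. abcc3 (ENSORLG00000020741), the conjugate exporter MRP3, stood at 2397, 3235 and 3283 in unexposed control lineage fish, at 4056 and 7839 at 0.002 mg/L, then at 5652, 4215 and 5504 at 0.02 mg/L. All exposed libraries lay above the unexposed ones, and the exposed groups overlapped each other. Its log2 differences of 0.94 and 0.79 had limma adjusted p-values of 0.0977 and 0.0883, and with all 18 libraries the first was -0.06 (adjusted p 0.953).

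Transcripts of gut and kidney coincided with high readings of several members in the unexposed control lineage. The intestine marker apoa4a, an apolipoprotein of absorptive cells, stood at 32012, 26.7 and 62.4 in replicates 1, 2 and 3, and the intestinal cadherin cdh17 at 2578, 84.2 and 6201. In replicate 1 or 3, 10.2% of the 59 members and 4.19% of all genes read at least 2-fold above the highest of the other 15 libraries. The 6 members that did so were chosen after values were seen. Besides abcb4, ABCB4 and slc22a6l these were abcg8, a partner in the sterol exporter pair of gut and liver, at 139 and 14.3, abcb11a, a bile salt export pump, at 116 and 12, and slc22a13b at 93.6 and 12.6. The mean of slc22a13b without these 2 libraries was 7.42, so it reached the mean of 10 through the high reading. abcg2c, below the mean of 10, read 43.3 and 64.1 in these 2 libraries and 0.809 in replicate 2. Their part in the differences was not tested.

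**Figure D4:**
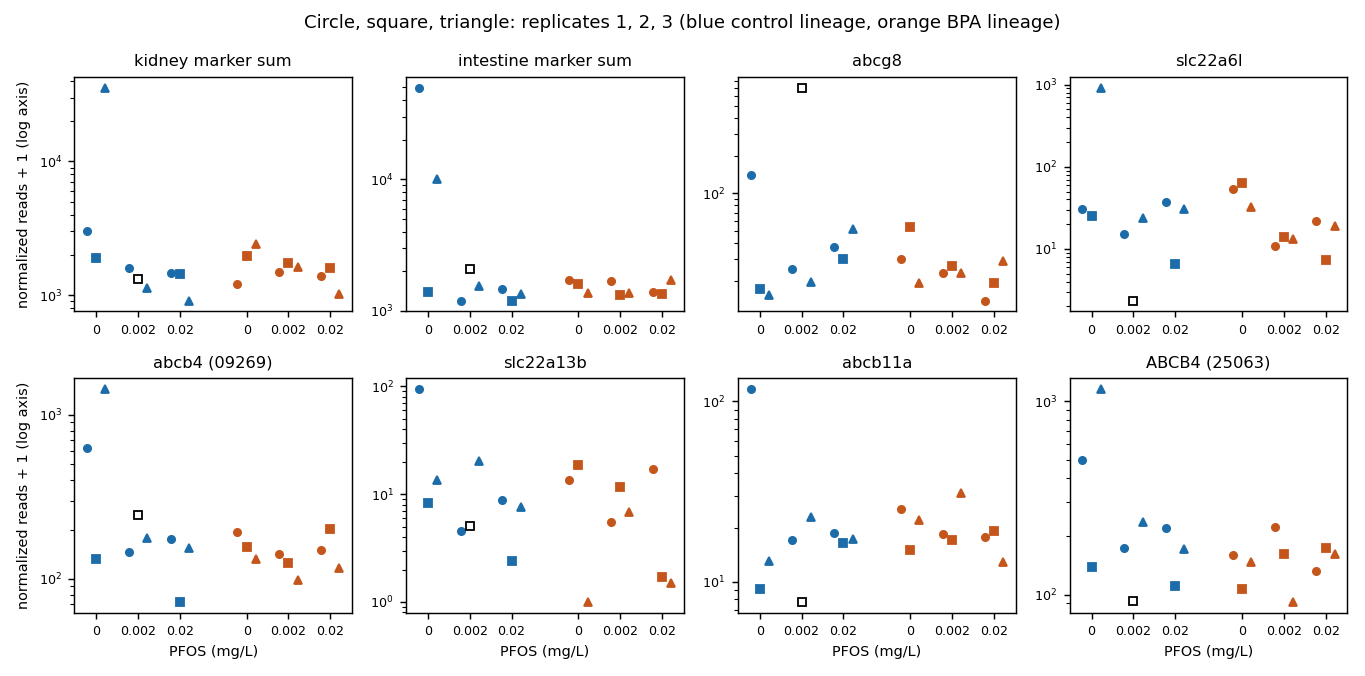
Summed kidney and intestine markers and the 6 members that were at least 2-fold higher in control lineage 0 mg/L replicate 1 or 3 than in the other 15 libraries: normalized reads plus 1 on log axes by PFOS concentration in mg/L, with circles, squares and triangles for replicates 1, 2 and 3, blue for the control lineage, orange for the BPA lineage and an open square for the library with oocyte transcripts. The kidney sum of 35487, of which slc12a3 holds 31800, and the slc22a6l reading of 913 are both in replicate 3, and the abcg8 reading of 139 is in replicate 1. The 6 members are 10.2% of the 59, and 4.19% of all genes read that high.

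Other transport genes and regulators of transport were read from a list of 48 tested genes that hold MATE exporters, monocarboxylate, bile acid, peptide and sulfate carriers and transcription factors of transport tissue. In the control lineage 5 of the 48 passed at 0.002 mg/L, 0 higher and 5 lower, beside 4.59% of all genes, and 7 at 0.02 mg/L, 1 higher and 6 lower, beside 12.8%. Their medians were -0.64 and -0.75 on the log2 scale, beside 0.01 and 0.03 for all genes. Some list genes read highest in unexposed control lineage replicate 1 or 3, which carried gut and kidney transcripts. In replicates 1, 2 and 3, pdzk1 stood at 798, 4.86 and 289, hnf4g at 186, 0.809 and 391 and slc15a1b at 1913, 41.3 and 30.9. Others did not, such as ppara at 682, 769 and 729. The part of these transcripts in the medians was not tested. Between unexposed lineages 3 of the 48 (6.25%) passed, all lower in the BPA lineage, beside 10.3% of all genes, and 3 (6.25%) passed for the interaction at 0.02 mg/L, beside 14.2%. With all 18 libraries 8 passed for the low dose in the control lineage (7.85% of all genes), and 0 for the high dose (0.0692%), between unexposed lineages (0.0213%) and for the interaction at the high dose (1.39%). Limma with 17 libraries called 0 of the 48 for either dose in the BPA lineage, where 7 and 4 had an unadjusted p under 0.05 (9.55% and 18.4% of all genes), and 0 between lineages at the low and high dose, where 4 and 3 did (8.42% and 12.1%). It also called 0 for the interaction at the low dose, where 12 did (23.3%), and 0 in the F test, where 14 did (24.9%). In these 6 comparisons edgeR called 0, 0, 0, 0, 0 and 8 of the 48, the last 2 beside 0.303% and 4.93% of all genes, and DESeq2 called 0, 1, 1, 0, 8 and 19, the last 2 beside 8.99% and 19.9%.

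hnf4a (ENSORLG00000016380), a nuclear receptor that drives gut, liver and kidney genes, was among those that fell in the control lineage. It stood at 472, 27.5 and 83.6 without PFOS and at 13.7, 19.8 and 24.3 at 0.02 mg/L, with a log2 difference of -2.40 ± 0.74 (limma adjusted p 0.0438, or 0.144 with all 18 libraries). Unexposed libraries lay above all those at 0.02 mg/L, and replicates 1 and 3, with gut and kidney transcripts, read highest. slc16a9a (ENSORLG00000005345), a relative of a carnitine exporter in humans, fell at both doses in the control lineage. The log2 differences were -3.22 ± 0.68 and -2.79 ± 0.61 (limma adjusted p 0.0291 and 0.0146, or 0.0208 and 0.102 with all 18 libraries). It read 291, 93.9 and 82.4 in unexposed control lineage fish and 11.7 to 22.6 in control lineage fish with PFOS. In the BPA lineage it read 55.7, 15 and 99.3 without PFOS and 23.6 to 77.8 with PFOS. The interaction at 0.02 mg/L was 2.91 ± 0.86 (limma adjusted p 0.0332, or 0.103 with all 18 libraries).

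The library with oocyte transcripts, compared with the 17 without a test, had 31 members below their range, 12 above it and 16 within it. The same counts over all genes were not made, so these describe the library and not the transporters as a set. Among the members at least 2-fold above the highest of the 17 were abcg8 at 701, abcf2a at 15974, abcd3a at 5441, abcf3 at 4474 and abcb6a at 1165. Of these, abcd3a brings branched-chain acyl groups into peroxisomes and abcf2a and abcf3 act on ribosomes. slc22a5, at 10.8, and SLCO3A1, at 6.75, were among those below.

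**Figure D5:**
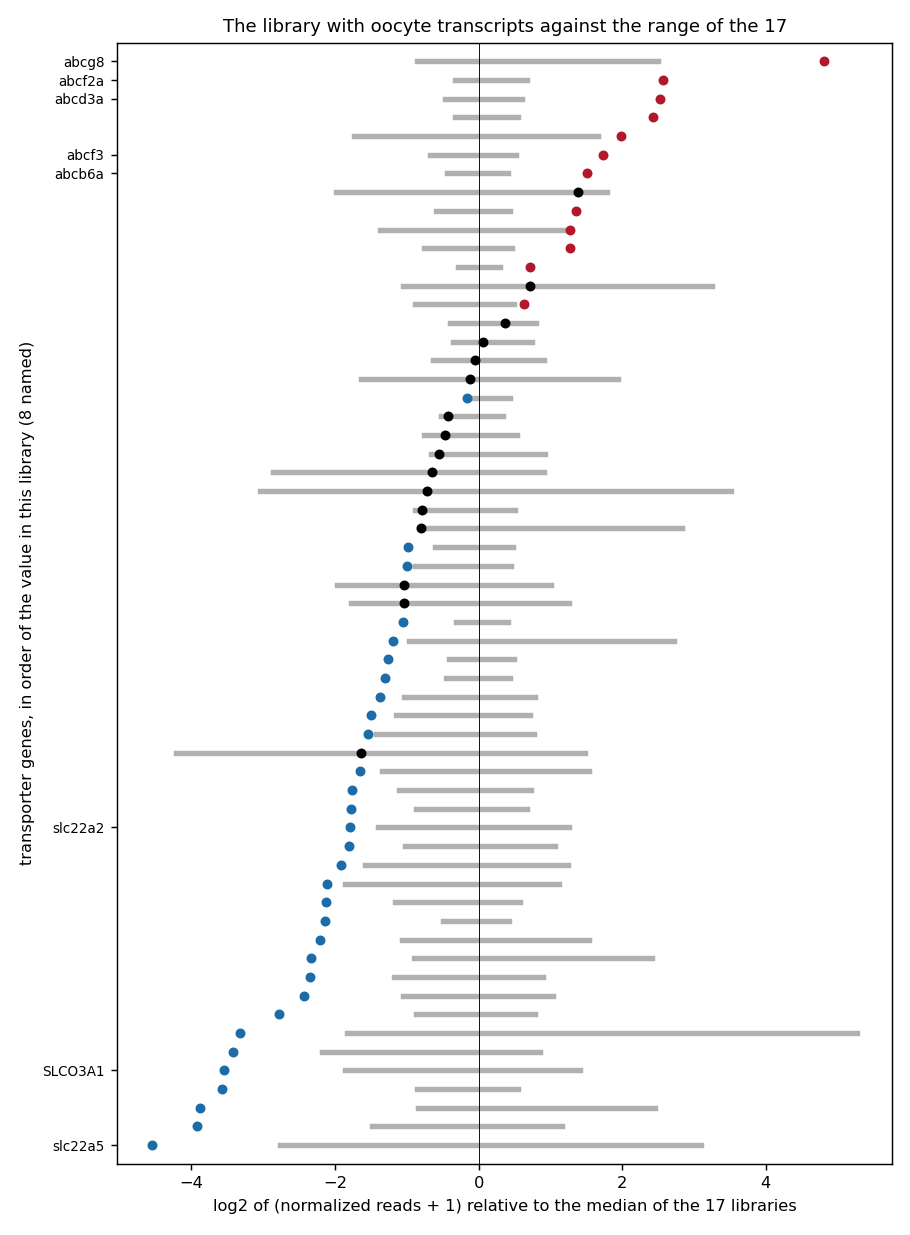
For each of the 59 members, the grey bar is the range of the 17 libraries and the dot the library with oocyte transcripts, both as log2(normalized reads + 1) relative to the median of the 17; red dots lie above the range, blue dots below it and black dots within it. The vertical axis names 8 of the genes. There are 12 red, 31 blue and 16 black dots, with abcg8 farthest up and slc22a5 farthest down. The same counts over all genes were not made.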

How the data were processed

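Testis RNA came from a Zymo Quick RNA/DNA kit and went into NEBNext Ultra II libraries at Novogene, per the labels' protocols. Per the submitters' processing notes, fastp 0.23.2, STAR 2.7.7a and DESeq2 1.34.0 were used; the sources used here do not give genome build, annotation, counter or strand, so overlapping, antisense and near-identical genes are uncertain. The values deposited by the authors are a normalized signal: each library's gene counts over its own size factor. Within a tolerance of 0.01, 100% of them gave whole reads, on which edgeR 4.0.16 and DESeq2 1.42.0 were run as alternatives.

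Members and lists were chosen with earlier results of these data known. Genes with a mean of at least 10 were fitted with limma 3.58.1 (R 4.3.3) on log2(value + 1) of 17 libraries, with a mean for each of 6 groups, trend and robust options; fold changes of low genes are understated on this scale. Groups come from the labels. P-values measure the spread between libraries within groups, with 3 or fewer libraries a group. It is 1 value for each gene that all 6 groups share, so leaving out a library of any group can move the p-value of every comparison. Named are slc22a2, members past the threshold (at most 6 in each direction a comparison), the member of highest mean in each family, and list genes that passed; further members were named after their values were seen, and some genes are not reported here. Alternatives were a pseudocount of 5, no filter, TMM, only the groups compared, a block for the replicate number, edgeR, DESeq2, all 18 libraries, each library left out and, added after seeing the data, no control libraries with gut and kidney transcripts.

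On simulated data with 200 of 18792 genes changed, the test recovered 22% of 2-fold and 58% of 4-fold changes for 0.02 against 0 mg/L in the control lineage and called 5 unchanged genes. In the BPA lineage it recovered 23% and 62% and called 7. The simulated libraries varied independently, without transcripts of other organs. Fewer genes were changed than the 12.8% called for 0.02 mg/L in the control lineage, so these rates need not hold for the real libraries. TMM scaling moved the median of all genes by less than 0.1 in every comparison.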

Additional observations from a re-analysis of the deposited data

Results flagged for a closer look

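Each of the following was picked out because the change with PFOS differed between the lineages by the interaction test, with limma adjusted p-values under 0.05. For slc22a2 the difference in log2 change (BPA lineage minus control lineage) was -2.14 at 0.002 mg/L and -3.28 at 0.02 mg/L. At 0.02 mg/L it was negative for slc22a21 (-3.30), slc22a5 (-2.97), SLCO3A1 (-2.32), abcg1 (-1.63) and SLC22A17 (-0.84). It was positive for slco5a1a (3.58), abcd2 (1.65), abcc1 (1.61), abcc9 (1.48) and abcg2a (0.96). The call of slc22a2 at 0.002 mg/L was lost in 6 of 9 other settings. The interaction calls share the unexposed control lineage libraries, 2 of which carry gut and kidney transcripts, and the part of those transcripts in them was not tested.

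A further 5 values were picked out because they lie in the library left out of the fits and are at least 2-fold above the highest of the 17 others. They are normalized reads of abcf2a (15974), abcd3a (5441), abcf3 (4474), abcb6a (1165) and abcg8 (701). How many of all genes did so was not counted. Groups of 3 libraries are too small for the test of single outlying samples.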

How the results depend on the processing

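The number of members called depended on which libraries were used and on the tool, and for slc22a2 the interaction at 0.02 mg/L passed under every setting run. With all 18 libraries the calls went from 3 to 0 for 0.02 mg/L in the control lineage (over all genes from 2409 to 13), from 5 to 0 between unexposed lineages (from 1927 to 4), from 12 to 1 and from 1 to 0 for the interactions at 0.02 and 0.002 mg/L, and from 1 to 0 for the F test, while slc22a2 between lineages at 0.002 mg/L turned from -0.16 to 0.49. Without both control libraries with gut and kidney transcripts there were 0 calls for either dose in the control lineage, 0 between unexposed lineages, 1 and 0 for the interactions at 0.02 and 0.002 mg/L and 0 for the F test. DESeq2 called 7 and 9 members for 0.002 and 0.02 mg/L in the control lineage and 14 between unexposed lineages. Its share of all genes in these is not given here, so the counts are no result about transporters. It called 1 and 4 in the BPA lineage (0.122% and 5.74% of all genes) and 1 between lineages at 0.02 mg/L (0.867%). It called 4 for the interaction at 0.002 mg/L (8.99%) and 13 in the F test (19.9%). edgeR called 1 and 5 in the control lineage and 8 between unexposed lineages, where its share of all genes is likewise not given. It called 0 for the interaction at 0.002 mg/L (0.303% of all genes) and 5 in the F test (4.93%). For 0.002 mg/L in the control lineage (2 calls), TMM and no filter gave 1 each and the compared groups alone 0. For the interaction at 0.002 mg/L (1 call), TMM and no filter gave 0, the compared groups alone 4 and a pseudocount of 5 gave 2. For these settings, and for the fit without both control libraries with gut and kidney transcripts, the share of all genes is not given here. The latter fit leaves 1 library in the unexposed control lineage group. The counts of all these fits are thus no result about transporters. Leaving out 1 library gave 0 to 6 and 0 to 8 calls for the doses in the control lineage, 0 to 0 and 0 to 3 in the BPA lineage, 1 to 12, 0 to 0 and 0 to 1 between lineages in order of rising dose, 0 to 4 and 2 to 12 for the interactions and 0 to 6 for the F test; where it left 1 library in a group, that library is assumed to vary like the others. Over all genes the calls moved as well when 1 library was left out. They ran from 77 to 3781 for 0.02 mg/L in the control lineage and from 0 to 682 in the BPA lineage. Between unexposed lineages they ran from 180 to 3169, and for the interaction at 0.02 mg/L from 1149 to 4016. The member ranges are thus no result about transporters as a set. The deviations of same-numbered libraries correlated at a median of -0.03, with 4 of 40 pairs over 0.1. Those of libraries with different numbers correlated at a median of 0.03, with 12 of 80 pairs over 0.1. Such correlations cannot show whether replicate numbers pair the samples. A replicate block gave 0 calls for 0.002 mg/L in the control lineage, 0 for the interaction at 0.002 mg/L and 7 for that at 0.02 mg/L. The share of all genes with this block is likewise not given here. For single genes, other settings kept direction and side of the threshold in 170 cases, lost the call in 60, gained it in 3 and turned 1, and leaving out a library kept it in 312, lost it in 124 and gained it in 6. The cause of these changes was not tested. The F test has no version on the compared groups alone. Depth was 23.7 to 47.7 M reads, and genes under a mean of 10 were not tested except in the fit with no filter.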
